A study of Homo sapiens with 12 samples.

Results

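This account follows 10 genes in breast tumours: the transcription factors SNAI1, SNAI2, ZEB1 and TWIST1, the intermediate filament gene VIM, the receptor tyrosine kinase gene AXL, the matrix genes FN1 and SPARC, and the collagen cross-linking enzymes LOX and LOXL2. They were chosen by name as regulators and markers of the mesenchymal state, with earlier results of these data known. All 10 were among the 25369 gene symbols of the count table. All 10 also passed the filter on low counts that left 12514 genes to test. In epithelial-mesenchymal transition (EMT), transcription factors of the SNAI, ZEB and TWIST families bind E-box sequences, repress epithelial genes such as CDH1 and favour a state with vimentin filaments, fibronectin-rich matrix and motility. Lysyl oxidases oxidise lysines of collagen and elastin, which lets the fibres cross-link and stiffens the matrix around a tumour. The tumour cells were MDA-MB-231, a human breast cancer line classed as triple-negative and known for a mesenchymal phenotype in culture.

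The tumours were grown from MDA-MB-231 cells placed in 50 µl of Matrigel in the mammary fat pad of mice, 10 mice per group, and the strain, sex and age of the mice are not given in the sources used here. From a volume of 100 mm3 onward the mice were injected into the peritoneum on 5 days a week, for a time that the labels do not give. Control mice received the vehicle of 4% DMSO, 30% PEG 300 and 5% Tween 80, and the p38i group was given 1 mg/kg/day of SB202190, which inhibits p38 stress-activated kinases. Mice of the EZH2i group had 10 mg/kg/day of EPZ-6438 (the labels spell its code in 2 ways), which inhibits EZH2, the methyltransferase of histone H3 lysine 27. Both compounds were given in the combination group. All groups share the cell line, the site and the injection schedule. RNA from 3 tumours per group gave 12 libraries, named here by group and tumour code, such as control 1-1. The p38i libraries col5 and col6 carry column numbers because the labels do not tie them to a tumour. The series concerns EZH2 and p38 signalling in breast cancer progression, and its design sets either inhibitor, and both together, against the vehicle.

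Library totals ran from 2208771 to 4467942 counts. Levels are given as CPM, counts brought to a common library size with TMM factors (trimmed means of M values). CPM are not corrected for transcript length, so they compare a gene between tumours and not one gene with another. Log2 differences, their standard errors (SE) and adjusted p-values come from edgeR's quasi-likelihood test over all 12514 genes, and a gene was called at an adjusted p under 0.05. Where no tool is named, a call is one of edgeR. The libraries carry separate tumour codes, but the labels do not say that each came from its own mouse, so p-values measure only the spread between these libraries. In bulk tumour RNA, fewer cells of a type and less RNA per cell cannot be told apart. The labels record no removal of mouse reads, so host transcripts that align to human genes cannot be told apart from those of the tumour cells. Summed CPM of 12 skeletal muscle markers was 697 in p38i col6 and at most 30.4 in the other 11 libraries. The log2 differences of p38i from control are therefore also given without p38i col6.

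One of the 10 genes was called in a comparison with control: LOXL2 rose with p38i. Among all genes tested, 1.77% were called in that comparison, 0.216% for EZH2i and 0.00799% for the combination. With EZH2i and with the combination none of the 10 was called by edgeR or by limma-voom, while DESeq2 called 1 and 2 of them. DESeq2 gave no adjusted p for SNAI1 against control, nor for TWIST1 in the combination, so it could not call them there. DESeq2 also called more of all genes: 5.05% for p38i (2 of the 10), 1.85% for EZH2i and 1.33% for the combination. At an unadjusted p under 0.05, edgeR had 3 of the 10 genes for p38i, 6 for EZH2i and 5 for the combination, against 18.4%, 14.7% and 16.3% of all genes tested. The median log2 difference of the 10 genes from control was 0.25 for p38i, 0.20 for EZH2i and 0.50 for the combination, and over all genes it was -0.00, 0.01 and 0.01. Since the 3 treated groups were set against the same 3 control libraries, similar values in these comparisons are not independent of each other. The genes were chosen with earlier results of these data known, so their counts and medians above are no test of the set. Without p38i col6 the log2 difference of p38i from control was 0.03 for SNAI2, -0.01 for ZEB1, 0.01 for VIM and 0.37 for AXL, and for the other 6 genes it stands with their values.

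**Figure D1:**
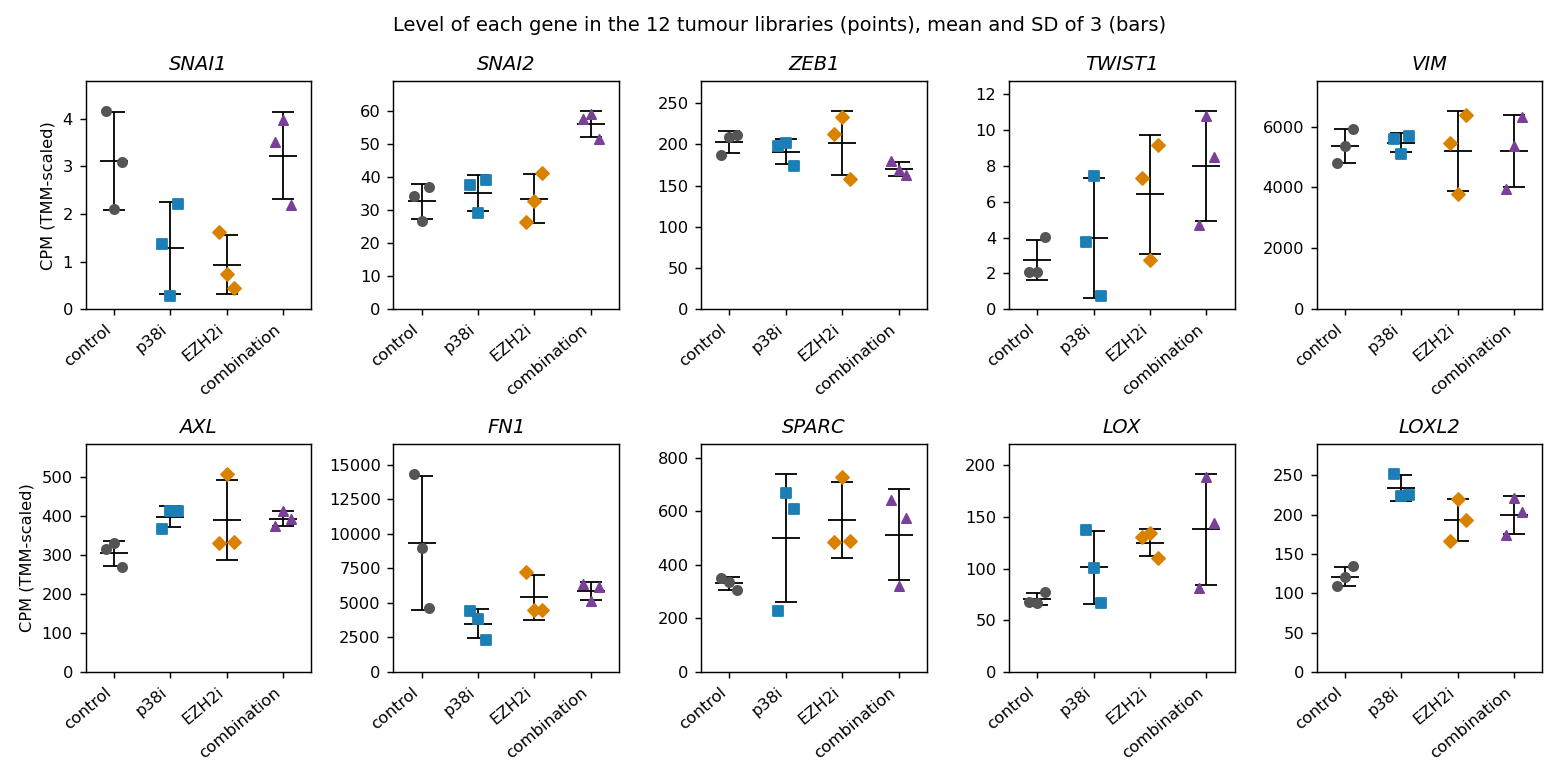
Level of each of the 10 genes in CPM (vertical axes, linear from 0) for the 12 tumour libraries by group (horizontal axis). Points are single libraries, and bars give the mean and SD of 3. LOXL2 lies between 109 and 134 CPM in control and between 166 and 252 CPM in all treated tumours, SNAI2 is highest in the combination, and FN1 is spread widely among the controls.

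SNAI2 encodes Slug, a zinc-finger repressor that binds E-boxes. Its level was 34.1, 26.7 and 37.0 CPM in control 1-1, 1-3 and 2-1, and 37.5, 29.0 and 38.9 CPM in p38i 3-3, col5 and col6. It was 26.4, 32.8 and 41.0 CPM in EZH2i 5-3, 5-4 and 6-1, and 57.4, 59.0 and 51.5 CPM in combination 8-1, 9-1 and 9-2. The 3 combination tumours were thus above each of the other 9, while control, p38i and EZH2i overlapped throughout. Group means were 32.6 ± 5.29 CPM in control, 33.4 ± 7.32 with EZH2i, 35.1 ± 5.37 with p38i and 56.0 ± 3.98 with the combination (SD, n = 3), and the first 3 of these did not differ beyond their spread. The combination was 1.72-fold control, with a 95% interval of 1.28 to 2.30, a log2 difference of 0.78 (SE 0.198) and an adjusted p of 0.165. DESeq2 gave an adjusted p of 0.0354 for the same comparison. Against the single agents the log2 difference was 0.67 from p38i (adjusted p = 0.575) and 0.75 from EZH2i (adjusted p = 0.991). With either agent alone SNAI2 was close to control, at a log2 difference of 0.11 for p38i (95% interval -0.32 to 0.53) and 0.03 for EZH2i (-0.40 to 0.47).

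SNAI1 encodes Snail, the repressor for which CDH1 was an early described target, and it was measured from few counts, between 1 and 18 per library. It measured 4.16, 2.10 and 3.08 CPM in control 1-1, 1-3 and 2-1, and 1.36, 0.28 and 2.20 CPM in p38i 3-3, col5 and col6. It measured 1.63, 0.75 and 0.44 CPM in EZH2i 5-3, 5-4 and 6-1, and 3.52, 3.96 and 2.20 CPM in combination 8-1, 9-1 and 9-2. All EZH2i tumours were below all controls and all combination tumours, whereas p38i overlapped control. Means were 0.936 ± 0.617 CPM with EZH2i, 1.28 ± 0.966 with p38i, 3.12 ± 1.03 in control and 3.23 ± 0.918 with the combination (SD, n = 3). Neither the lower pair nor the upper pair differed beyond its spread. The log2 difference from control was -1.70 (SE 0.668) for EZH2i and -1.21 (SE 0.609) for p38i, with adjusted p-values of 0.260 and 0.304, and 0.09 for the combination (adjusted p = 0.949). Single libraries moved the p38i value from -1.92 without col6 to -0.72 without col5.

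TWIST1, a basic helix-loop-helix factor that binds E-boxes, had 3 to 49 counts per library. It measured 2.08, 2.10 and 4.03 CPM in control 1-1, 1-3 and 2-1, and 3.75, 7.45 and 0.73 CPM in p38i 3-3, col5 and col6. With EZH2i it measured 7.32, 2.73 and 9.17 CPM in 5-3, 5-4 and 6-1, and with the combination 4.69, 10.8 and 8.47 CPM in 8-1, 9-1 and 9-2. The combination tumours were all above the controls, and the single-agent groups overlapped control and each other. The order of means was control (2.74 ± 1.12 CPM), p38i (3.98 ± 3.36), EZH2i (6.41 ± 3.31) and combination (7.98 ± 3.08), with no neighbours apart beyond their SD (n = 3). The combination differed from control by 1.50 on the log2 scale (SE 0.634; adjusted p = 0.274), EZH2i by 1.12 (adjusted p = 0.449) and p38i by 0.47 (adjusted p = 0.762). The p38i value was -0.40 without col5 and 1.00 without col6, and limma-voom on all libraries gave -0.07. Its sign thus changed with the library left out and with the tool.

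ZEB1 encodes a zinc-finger homeobox repressor of epithelial genes. It measured 187, 208 and 212 CPM in control 1-1, 1-3 and 2-1, and 197, 202 and 174 CPM in p38i 3-3, col5 and col6. With EZH2i it measured 213, 234 and 158 CPM in 5-3, 5-4 and 6-1, and with the combination 179.9, 168 and 163 CPM in 8-1, 9-1 and 9-2. Each combination tumour was below each control, by a log2 difference of -0.25 (95% interval -0.58 to 0.08; adjusted p = 0.426). Means were 202 ± 13.4 CPM in control, 202 ± 38.9 with EZH2i, 191 ± 15.0 with p38i and 170.5 ± 8.57 with the combination (SD, n = 3). The log2 difference from control was -0.08 for p38i and -0.00 for EZH2i, and the second of these turned positive (0.04) with library totals as the scaling.

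VIM encodes vimentin, the filament protein by which mesenchymal cells are commonly recognised. Its group means were 5361 ± 556 CPM in control, 5462 ± 313 with p38i, 5198 ± 1318 with EZH2i and 5199 ± 1187 with the combination (SD, n = 3). The lowest library was EZH2i 5-4 at 3774 CPM and the highest EZH2i 6-1 at 6376 CPM, so 1 group spanned the whole range. Log2 differences from control were 0.03 for p38i (95% interval -0.40 to 0.46), -0.04 for EZH2i (-0.48 to 0.39) and -0.04 for the combination (-0.48 to 0.39). The last 2 became 0.00 and 0.02 with library totals as the scaling. The test of any difference among the 4 groups gave VIM an adjusted p of 0.990.

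AXL is the receptor of the ligand GAS6 in the TAM family of receptor tyrosine kinases, and it is commonly high in mesenchymal breast cancer lines. Its level was 315, 331 and 268 CPM in control 1-1, 1-3 and 2-1, and 368, 413 and 414 CPM in p38i 3-3, col5 and col6. It was 331, 509 and 333 CPM in EZH2i 5-3, 5-4 and 6-1, and 375, 413 and 394 CPM in combination 8-1, 9-1 and 9-2. The p38i and combination tumours were clearly above all controls, while EZH2i 5-3 was only just above control 1-3, at 330.95 against 330.54 CPM. These are 814 counts in a total of 2565786 and 1101 counts in a total of 3429634. With library totals alone as the scaling, EZH2i 5-3 falls below control 1-3. Means were 304.5 ± 32.4 CPM in control, 391 ± 102.5 with EZH2i, 394 ± 18.7 with the combination and 398 ± 26.5 with p38i (SD, n = 3), and the 3 treated groups did not differ beyond their spread. The log2 difference from control was 0.39 for p38i (SE 0.170; adjusted p = 0.241), 0.36 for EZH2i (adjusted p = 0.339) and 0.37 for the combination (adjusted p = 0.299). Without EZH2i 5-4, the library with the highest AXL level, the EZH2i value was 0.12.

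FN1 encodes fibronectin, the adhesive glycoprotein that integrins bind in the matrix and a common marker of EMT. Its level was 14358, 8982 and 4639 CPM in control 1-1, 1-3 and 2-1, and 4408, 3802 and 2311 CPM in p38i 3-3, col5 and col6. It was 7255, 4461 and 4468 CPM in EZH2i 5-3, 5-4 and 6-1, and 6356, 5128 and 6143 CPM in combination 8-1, 9-1 and 9-2. All p38i tumours were below all others. EZH2i 5-4 and 6-1 were also below the lowest control, while EZH2i 5-3 and the combination tumours lay within the wide control range. Means were 3507 ± 1079 CPM with p38i, 5395 ± 1611 with EZH2i, 5875 ± 656 with the combination and 9326 ± 4869 in control (SD, n = 3), with EZH2i, combination and control not separated beyond their spread. Control exceeded p38i 2.66-fold, a log2 difference of -1.41 (SE 0.355; 95% interval -2.18 to -0.64) with an adjusted p of 0.0656. The log2 difference was -0.79 for EZH2i (adjusted p = 0.318) and -0.67 for the combination (adjusted p = 0.359).

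The FN1 values depended on which control was kept. Without control 1-1, the highest library, the log2 difference was -0.95 for p38i (adjusted p = 0.212), -0.33 for EZH2i and -0.20 for the combination. Without control 2-1 it was -1.73 for p38i with an adjusted p of 0.0113, which passes the threshold. Without p38i col6 it was -1.17 (adjusted p = 0.225), and DESeq2 on all libraries gave -1.42 (adjusted p = 0.00167).

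Some fibroblast markers moved with FN1 among the controls and others did not. Of the 10, 5 had the order of FN1 (PDGFRB, POSTN, COL1A1, LUM and THY1), being highest in control 1-1 and lowest in 2-1. For THY1 this order rests on only 2, 1 and 0 counts in control 1-1, 1-3 and 2-1. COL1A2, COL3A1 and FAP were also highest in 1-1 but lowest in 1-3, PDGFRA ran the other way (1.67, 2.40 and 4.50 CPM in 1-1, 1-3 and 2-1), and DCN had at most 1 count in a control. PDGFRB, a receptor of fibroblasts and pericytes, measured 67.4, 35.1 and 15.2 CPM in control 1-1, 1-3 and 2-1, 7.10 to 12.7 CPM with p38i, 9.94 to 19.5 CPM with EZH2i and 19.4 to 26.1 CPM with the combination. POSTN, the matricellular protein periostin, measured 61.2, 10.8 and 1.42 CPM in the same 3 controls and at most 12.7 CPM in the treated tumours. COL1A1, which encodes a chain of type I collagen, measured 549, 322 and 210 CPM in those controls, and did not separate the groups, at 158 to 617 CPM over the treated tumours. The summed level of all 10 fibroblast markers ran from 459 to 1018 CPM in control, 291 to 901 CPM with p38i, 646 to 984 CPM with EZH2i and 541 to 1127 CPM with the combination. All 10 had counts in at least 1 library. Of the defining markers, DCN had at most 3 counts and was at 0 in 4 libraries, and THY1 had at most 5 counts and was at 0 in 7. The part of these markers in the FN1 difference was not tested.

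**Figure D2:**
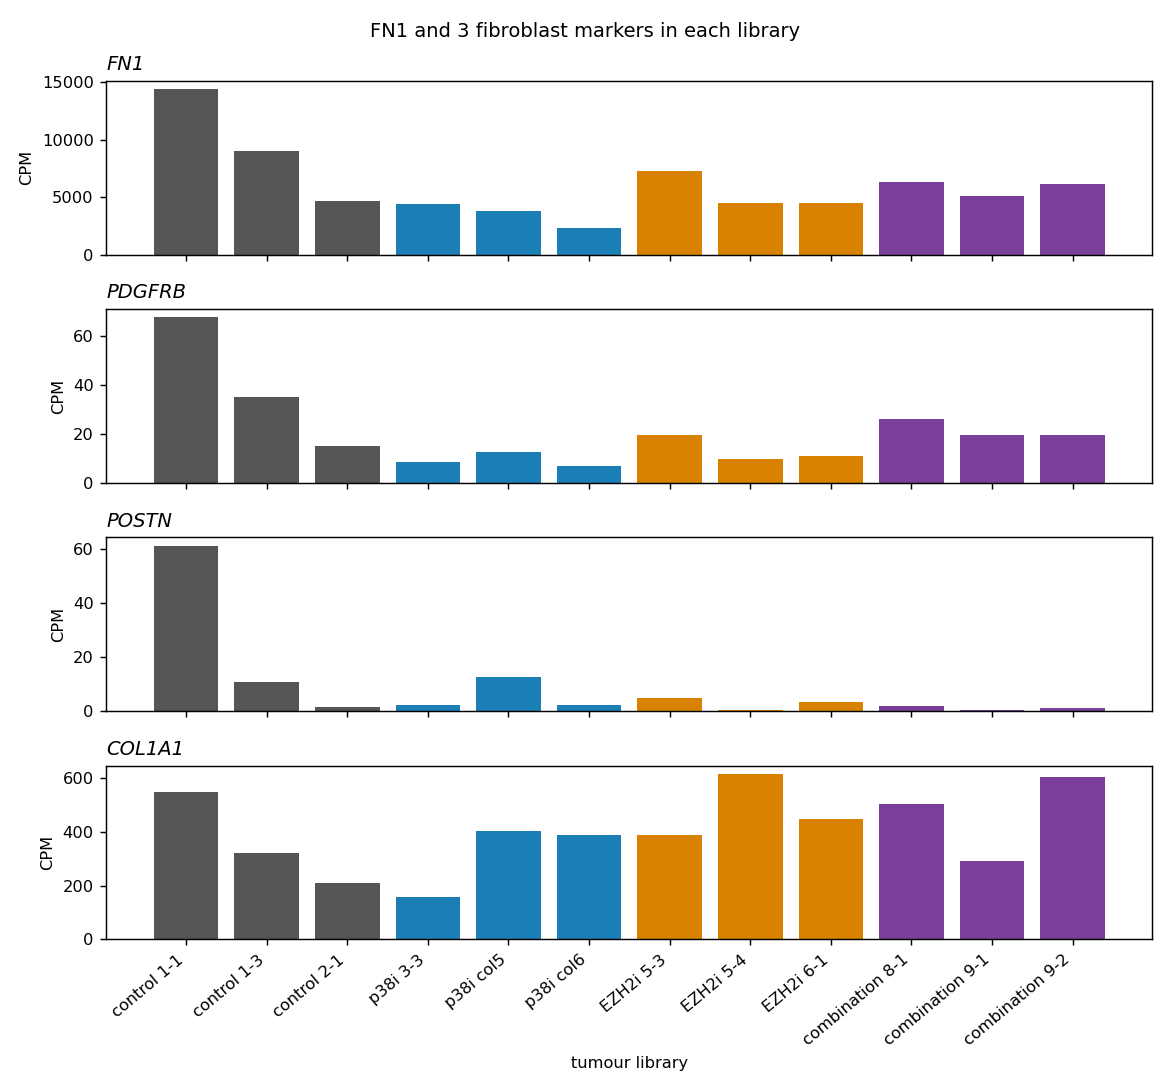
Level in CPM (vertical axes, linear from 0) of FN1 and of the fibroblast markers PDGFRB, POSTN and COL1A1 in each of the 12 tumour libraries (horizontal axis, coloured by group). Among the controls all 4 genes are highest in 1-1 and lowest in 2-1. The 3 markers shown are among the 5 of 10 fibroblast markers with this order, and the other 5 differ from it. FN1 is lowest in the 3 p38i tumours, at 2311 to 4408 CPM.

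SPARC encodes osteonectin, a matricellular protein that binds collagen. It measured 353, 335 and 306 CPM in control 1-1, 1-3 and 2-1, and 228, 669 and 610.2 CPM in p38i 3-3, col5 and col6. With EZH2i it measured 484, 730.1 and 488 CPM in 5-3, 5-4 and 6-1, and with the combination 643, 321 and 576 CPM in 8-1, 9-1 and 9-2. The EZH2i tumours were above all controls, but p38i 3-3 and combination 9-1 fell in or under the control range. Means were 331 ± 23.7 CPM in control, 502 ± 239 with p38i, 514 ± 170 with the combination and 567 ± 141 with EZH2i (SD, n = 3), and the treated groups did not differ beyond their spread. The log2 difference from control was 0.78 for EZH2i (SE 0.349; adjusted p = 0.326), 0.60 for p38i (adjusted p = 0.385) and 0.63 for the combination (adjusted p = 0.380). Without p38i 3-3 the p38i value was 0.95, without col5 it was 0.37, and without col6 it was 0.44.

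LOX encodes the founding lysyl oxidase, a secreted copper enzyme known as a target of hypoxia-inducible factors. Its level was 67.8, 66.6 and 77.3 CPM in control 1-1, 1-3 and 2-1, and 137, 100.4 and 66.5 CPM in p38i 3-3, col5 and col6. It was 131, 134 and 110.4 CPM in EZH2i 5-3, 5-4 and 6-1, and 81.2, 189 and 144 CPM in combination 8-1, 9-1 and 9-2. Every tumour that received the EZH2 inhibitor, alone or in the combination, was above all controls, and p38i overlapped control through col6. Means were 70.6 ± 5.81 CPM in control, 101 ± 35.2 with p38i, 125 ± 12.8 with EZH2i and 138 ± 54.1 with the combination (SD, n = 3), with no treated neighbours apart beyond their spread. The combination was 1.95-fold control (95% interval 1.29 to 2.97), a log2 difference of 0.97 (SE 0.282; adjusted p = 0.192), and EZH2i was 1.77-fold (1.16 to 2.70), a log2 difference of 0.83 (SE 0.283; adjusted p = 0.207). For p38i the log2 difference was 0.52 (adjusted p = 0.352), with 0.76 without col6 and 0.24 without 3-3.

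LOXL2 encodes a secreted lysyl oxidase that cross-links collagen and is also reported to act on SNAI1 inside the cell. It measured 109, 120.1 and 134 CPM in control 1-1, 1-3 and 2-1, and 252, 223 and 225 CPM in p38i 3-3, col5 and col6. With EZH2i it measured 166, 220.0 and 193 CPM in 5-3, 5-4 and 6-1, and with the combination 174, 221 and 203 CPM in 8-1, 9-1 and 9-2. All 9 treated tumours were above all 3 controls, and the p38i tumours were above all others. Means were 121 ± 12.5 CPM in control, 193 ± 27.1 with EZH2i, 199.5 ± 23.8 with the combination and 234 ± 16.2 with p38i (SD, n = 3), and EZH2i and the combination did not differ beyond their spread.

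With p38i LOXL2 rose 1.92-fold (95% interval 1.53 to 2.41), a log2 difference of 0.94 (SE 0.154; adjusted p = 0.0164; higher in 3 of 3 tumours). Leaving out 1 of the 6 libraries of this comparison kept the log2 difference between 0.88 and 1.03, with 0.98 without p38i col6. The adjusted p was then 0.0570 without control 1-1, 0.0833 without control 1-3, 0.0617 without p38i 3-3, 0.0504 without p38i col5 and 0.0663 without p38i col6. Leaving out any of these 5 libraries thus ended the call, and the adjusted p was 0.0116 without control 2-1. Calls over all genes fell from 221 to 32, 3, 2, 7 and 2 without these 5 libraries, in the same order. The unadjusted p of LOXL2 (edgeR) was between 6.96e-05 and 0.000205 in these 5 fits. For EZH2i the log2 difference was 0.67 (SE 0.154; adjusted p = 0.0892), and for the combination 0.72 (SE 0.154; adjusted p = 0.129). DESeq2 gave LOXL2 an adjusted p of 4.54e-06 for p38i, 0.00609 for EZH2i and 0.00316 for the combination.

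**Figure D3:**
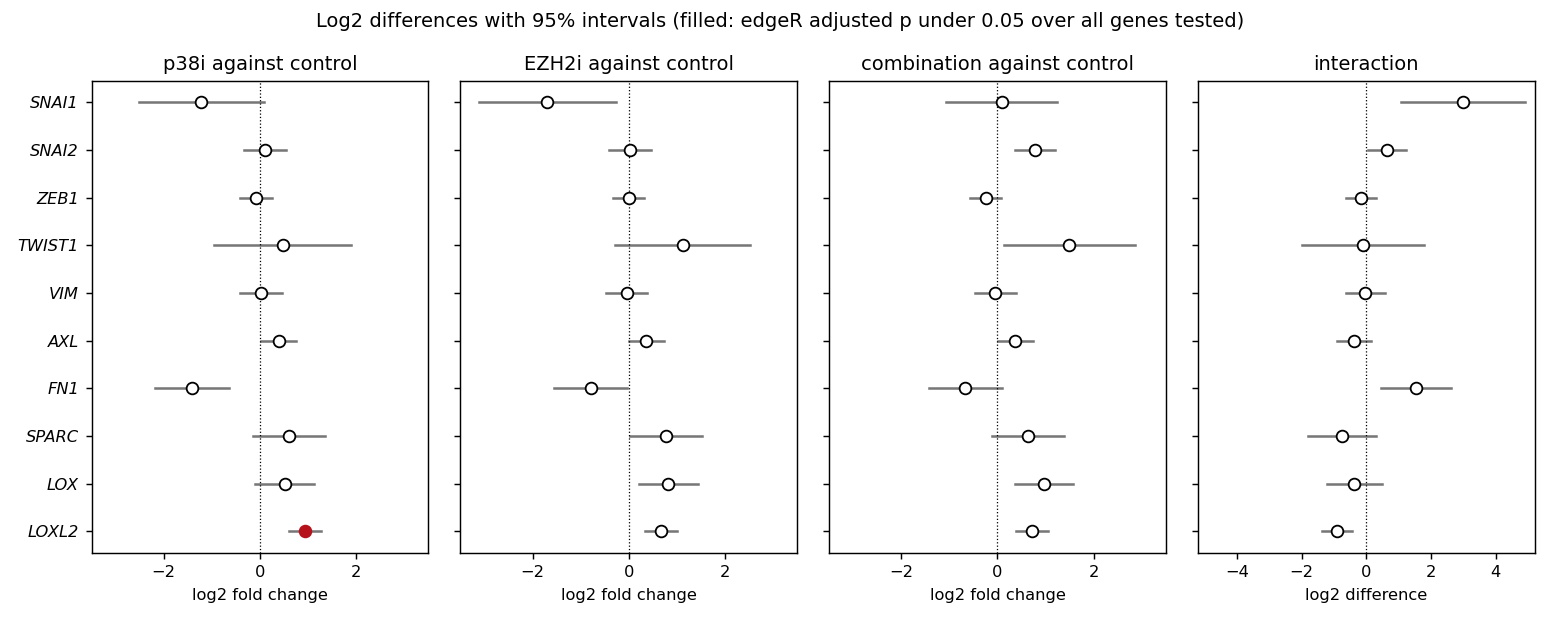
Log2 differences from control for p38i, EZH2i and the combination, and the interaction (horizontal axes), for each of the 10 genes (vertical axis). Points are edgeR estimates, lines are 95% intervals, and a filled point marks an adjusted p under 0.05 over all 12514 genes, which LOXL2 with p38i alone reached.

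In the combination against p38i 0% of all genes were called by edgeR, in the combination against EZH2i 0%, and in EZH2i against p38i 0%. At an unadjusted p under 0.05 these comparisons had 977, 391 and 426 genes, limma-voom called 0 in each, and DESeq2 called 7, 1 and 1, none of them among the 10. SNAI2 and SNAI1 were the members with an unadjusted p under 0.05 when the combination was set against p38i and against EZH2i. For SNAI1 the log2 difference was 1.30 from p38i (adjusted p = 0.622) and 1.78 from EZH2i (adjusted p = 0.991). FN1 was higher in every combination tumour than in every p38i tumour, by 0.74 on the log2 scale (95% interval -0.01 to 1.50; adjusted p = 0.642). LOXL2 was lower in every combination tumour than in every p38i tumour, at a log2 difference of -0.23 (-0.55 to 0.10; adjusted p = 0.748). Between EZH2i and p38i the log2 difference of LOXL2 was -0.27 (-0.60 to 0.05; adjusted p = 0.998) and that of FN1 was 0.62 (-0.13 to 1.38; adjusted p = 0.998).

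The interaction is the log2 difference of the combination from control minus the differences of both single agents, and is 0 when these add up. edgeR called 0.0240% of all genes for it and none of the 10, limma-voom none of the 10, and DESeq2 1 of them, with 1.81% of all genes. Of the 10 genes 4 had an unadjusted p under 0.05, against 13.1% of all genes. LOXL2 had an interaction of -0.90 (SE 0.216; adjusted p = 0.105): the combination was at 0.72, where the single agents at 0.94 and 0.67 add up to a higher value. DESeq2 gave this interaction an adjusted p of 0.00990. SNAI1 had an interaction of 3.00 (SE 0.896; adjusted p = 0.167), with both single agents below control and the combination near it, in the low counts given above. FN1 had 1.53 (SE 0.495; adjusted p = 0.203), and SNAI2 had 0.64 (SE 0.283; adjusted p = 0.347). The test of any difference among the 4 groups called 0.200% of all genes and none of the 10. In it 5 of the 10 had an unadjusted p under 0.05, against 13.7% of all genes. LOXL2 had the lowest adjusted p among the 10, 0.0593. limma-voom called none of the 10 in that test, and DESeq2 called 3, with 3.34% of all genes.

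The counts of genes whose groups do not overlap describe the same CPM without a test, and they rest on the TMM scaling. Against control, 3 of the 10 genes did not overlap for p38i (LOXL2 and AXL higher, FN1 lower), where 24.8% of all genes did not. For EZH2i 5 of 10 did not overlap (LOX, LOXL2, AXL and SPARC higher, SNAI1 lower), where 16.4% of all genes did not. For the combination 6 of 10 did not overlap (SNAI2, TWIST1, LOX, LOXL2 and AXL higher, ZEB1 lower), where 22.0% of all genes did not. LOXL2 and AXL were the members above control in all 9 treated tumours, and the share of all genes above control in all 9 was not counted. In the combination against p38i 3 of 10 did not overlap (SNAI2 and FN1 higher, LOXL2 lower; 15.0% of all genes), in the combination against EZH2i 2 of 10 (SNAI2 and SNAI1 higher; 7.11%), and in EZH2i against p38i 2 of 10 (FN1 higher, LOXL2 lower; 7.62%).

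Across the 12 tumours the 10 genes did not move as 1 block, and none of the 45 pairs passed an adjusted p of 0.05 on Pearson's r (Benjamini-Hochberg over the 45), while 1 passed on Spearman's rho. Libraries of 1 treatment group are among the points, so r of the deviations from group means is given beside each pooled value. The permutations ran over all 12 libraries without regard to group, so group differences enter these p-values. No p was computed for the deviations. FN1 and LOXL2 ran in opposite directions (Pearson r = -0.77, permutation p = 0.00231, adjusted p = 0.104; Spearman rho = -0.85, permutation p = 0.000840, adjusted p = 0.0378), with r = -0.66 without the 2 libraries of FN1 level farthest from the median and -0.56 for the deviations. SNAI2 and ZEB1 also ran in opposite directions (r = -0.71, permutation p = 0.0113, adjusted p = 0.128; rho = -0.80, permutation p = 0.00274, adjusted p = 0.0616), with r = -0.72 without the 2 farthest libraries and -0.54 for the deviations. LOXL2 and AXL ran in the same direction (r = 0.72, permutation p = 0.00699, adjusted p = 0.128; rho = 0.78, permutation p = 0.00458, adjusted p = 0.0687), with r = 0.76 without the 2 farthest libraries and 0.35 for the deviations. TWIST1 and LOX did as well (r = 0.71, permutation p = 0.0101, adjusted p = 0.128; rho = 0.70, permutation p = 0.0143, adjusted p = 0.161), with r = 0.55 without the 2 farthest libraries and 0.56 for the deviations. The 2 lysyl oxidases had r = 0.63 with each other (permutation p = 0.0306, adjusted p = 0.276; rho = 0.41, permutation p = 0.185, adjusted p = 0.695), with r = 0.83 without the 2 farthest libraries and 0.62 for the deviations. Over the 9 treated libraries alone their r was 0.15. Among the 4 transcription factors, pairs other than SNAI2 with ZEB1 had r between -0.30 and 0.44.

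**Figure D4:**
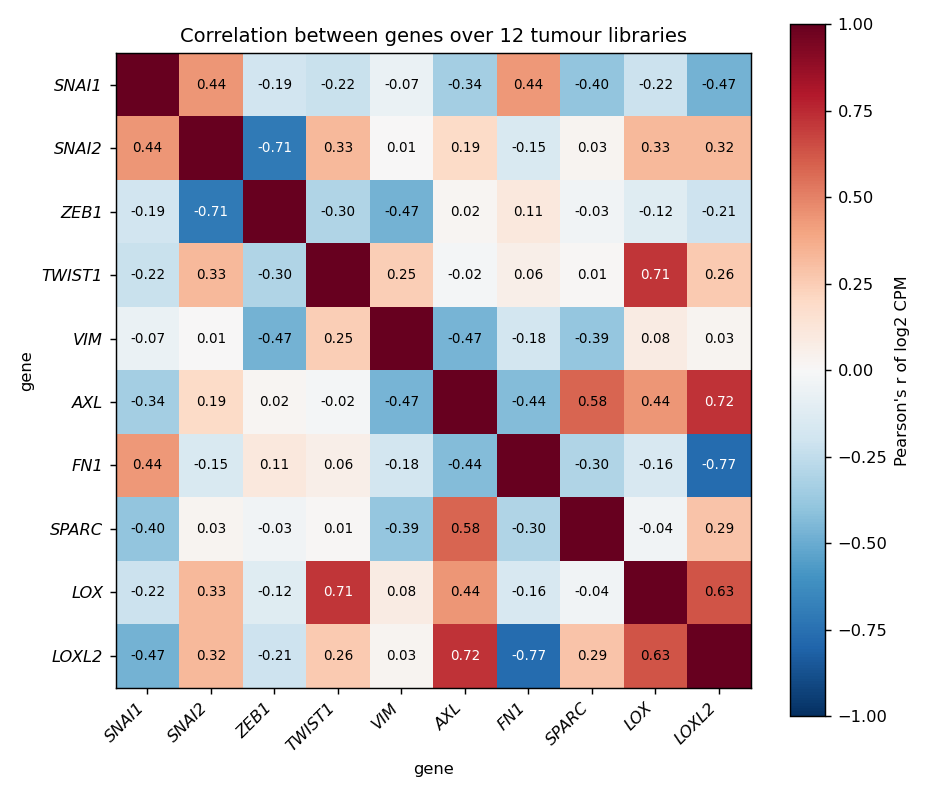
Pearson's r of log2 CPM over the 12 tumour libraries for each pair of the 10 genes (both axes), from blue for -1 to red for 1. FN1 with LOXL2 (-0.77) and SNAI2 with ZEB1 (-0.71) are the most negative pairs, and LOXL2 with AXL (0.72) is the most positive.

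The genes most like each member were taken as the 3 with the highest Pearson r of log2 CPM over the 12 libraries among all genes tested, which is a description without a test. For SNAI2 these were EED, a subunit of the complex that holds EZH2 (r = 0.885), F3, which encodes tissue factor (0.869), and TRIM59 (0.863). For FN1 they were PDGFRB (0.936), LYST (0.936) and SPON2 (0.932), the first of which is among the fibroblast markers above. For SPARC they were CCNE1 (0.907), KEAP1 (0.905) and COL3A1 (0.878), of which the collagen gene COL3A1 is also on the fibroblast list. For LOXL2 they were ODC1, the first enzyme of polyamine synthesis (0.972), CTH (0.953) and SRSF3 (0.942). For AXL they were GNB4 (0.973), MYH9, a non-muscle myosin heavy chain (0.936), and CUTA (0.935). For LOX they were AHSP (0.929), IFRD1 (0.926) and HOXA3 (0.918), and for VIM they were KRT222 (0.899), SUPT20H (0.886) and SIPA1L3 (0.877). For ZEB1 they were TMEM120B (0.885), ACADVL (0.878) and TAZ, in older annotations the symbol of tafazzin (0.868). The 2 factors with few counts were led by TRMT44 (0.873) for SNAI1 and LOC101928517 (0.950) for TWIST1.

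Promoter sequence was matched by symbol in the RefSeq table of GRCh38.p14 for 6 of the 10 genes (AXL, FN1, LOX, SPARC, VIM and ZEB1), as 15 windows of the 250 bases before an annotated start. The counts rest on hg19, so these positions apply to GRCh38.p14 alone. Of the motifs searched on both strands, the E-box CACCTG or CAGGTG, which SNAI and ZEB proteins bind, is in 17.5% of all 35116 windows, the cyclic AMP response element TGACGTCA in 1.65%, the AP-1 motif TGANTCA in 6.57% and the hypoxia response core ACGTG or CACGT in 18.5%. The windows shown are those of FN1, whose log2 difference with p38i was the largest in size of the 10, of LOX, which was above control in all tumours given the EZH2 inhibitor, and of AXL, which was above control in all treated tumours. The windows run up to the base before the start, 5′ to 3′ on the strand of the gene, and capitals mark the motif matches.
FN1: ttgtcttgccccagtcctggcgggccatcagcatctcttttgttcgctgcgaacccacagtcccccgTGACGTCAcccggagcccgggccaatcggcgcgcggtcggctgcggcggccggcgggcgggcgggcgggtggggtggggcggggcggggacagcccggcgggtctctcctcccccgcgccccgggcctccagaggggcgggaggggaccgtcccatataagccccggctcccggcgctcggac
LOX: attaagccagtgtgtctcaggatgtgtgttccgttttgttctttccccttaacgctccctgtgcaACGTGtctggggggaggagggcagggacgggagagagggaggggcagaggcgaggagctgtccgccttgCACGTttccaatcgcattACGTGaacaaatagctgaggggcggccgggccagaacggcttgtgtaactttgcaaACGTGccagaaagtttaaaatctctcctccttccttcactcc
AXL: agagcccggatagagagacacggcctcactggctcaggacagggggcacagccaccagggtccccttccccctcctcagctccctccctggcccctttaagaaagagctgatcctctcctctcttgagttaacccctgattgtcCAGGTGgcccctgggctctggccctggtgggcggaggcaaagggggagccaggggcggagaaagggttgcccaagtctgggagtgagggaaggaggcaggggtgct
FN1 holds 1 cyclic AMP response element (chr2:215436069-215436318, minus strand), which begins 183 bases before the start. The LOX window shown (chr5:122078260-122078509, minus strand) is the farthest upstream of 3 for this gene and holds 4 hypoxia response cores, none overlapping. The other 2 LOX windows overlap each other and share 1 hypoxia response core and 1 E-box. The AXL window shown (chr19:41218973-41219222, plus strand) is the farther upstream of 2 for this gene and holds 1 E-box. The other AXL window holds no E-box and 2 hypoxia response cores. Of the 7 ZEB1 windows, 2 held E-boxes and another held 2 hypoxia response cores. The windows of SPARC and VIM held none of the motifs, and no window of the 6 genes held the AP-1 letters. A match is a stretch of letters and shows neither binding nor a cause of the values above.

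The surrounding programmes were read from 6 lists, of which 61 genes were tested. edgeR called only HMGA2 among them in a comparison with control. HMGA2, a chromatin protein of the high mobility group that promotes EMT, fell with p38i from 433 ± 78.2 to 260.0 ± 15.2 CPM (SD, n = 3), a log2 difference of -0.73 (SE 0.161; adjusted p = 0.0390; lower in 3 of 3 tumours). Its adjusted p was 0.152 without control 1-1, 0.113 without control 1-3, 0.0948 without p38i 3-3, 0.105 without col5, 0.160 without col6 and 0.0541 without combination 9-1, at log2 differences of -0.57 to -0.79. Calls over all genes fell from 221 to 32, 3, 2, 7, 2 and 87 in these fits, in the same order. It was 1 of 14 further EMT transcription factors, 10 of which were tested, and edgeR called none of the others. DESeq2 also called TCF3 for p38i (193 ± 22.4 CPM in control and 133 ± 13.1 with p38i, SD, n = 3; edgeR adjusted p = 0.1000, DESeq2 adjusted p = 0.0367). TCF3 is named here, as are CD44 and LAMB1 below, after their values were seen. The median log2 difference of those tested was -0.04 for p38i, -0.05 for EZH2i and -0.06 for the combination. ZEB2, the closest relative of ZEB1, measured 40.6 ± 2.39 CPM in control and 39.6 ± 6.58, 38.4 ± 9.50 and 36.3 ± 3.73 CPM with p38i, EZH2i and the combination (SD, n = 3).

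edgeR called none of the 13 mesenchymal adhesion and contractile genes tested against control, and their median log2 difference was -0.01 for p38i, 0.03 for EZH2i and 0.08 for the combination. CDH2, which encodes N-cadherin, had log2 differences of -0.05, 0.14 and 0.21 in that order, and CDH11 had -0.20, -0.44 and -0.03. CD44, the hyaluronan receptor, was above control in all 9 treated tumours, at 336 to 354 CPM in control, 452 to 529.6 with p38i, 399 to 725 with EZH2i and 525 to 598 with the combination. Its log2 differences were 0.54, 0.67 and 0.71 (edgeR adjusted p = 0.131, 0.128 and 0.165), and DESeq2 called those for EZH2i and the combination (adjusted p = 0.0334 and 0.0267). Among 12 matrix and matricellular genes edgeR called none, and the medians were -0.19, 0.02 and 0.11. THBS1, the secreted thrombospondin that activates latent TGF-beta, had -0.34, -0.41 and 0.21, and THBS2 had -0.75, 0.22 and -1.17. LAMB1, a laminin chain, measured 323 ± 91.9 CPM in control and 209 ± 16.5 with p38i (SD, n = 3; edgeR adjusted p = 0.112), and DESeq2 called it for p38i (adjusted p = 0.0498). FN1, at -1.41, -0.79 and -0.67, was below the median of these matrix genes in each comparison, and SPARC, at 0.60, 0.78 and 0.63, was above it.

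LOXL1 and LOXL4 are further lysyl oxidases. LOXL1 measured 186 ± 55.3 CPM in control, 142 ± 27.7 with p38i, 124 ± 37.2 with EZH2i and 128 ± 21.8 with the combination (SD, n = 3), with log2 differences of -0.38, -0.58 and -0.54. LOXL4 had 0.08, -0.48 and -0.11 at 3.93 to 13.2 CPM over all libraries, and LOXL3 had at most 7 counts per library and was not tested. None of the 11 lysyl oxidases and collagen-modifying enzymes tested was called, and their medians were 0.08, 0.05 and -0.11. The relatives of AXL gave no call either: TYRO3 had log2 differences of 0.28, -0.32 and 0.42, MERTK -0.54, -0.21 and -0.07, and their ligands GAS6 0.58, 0.04 and 0.69 and PROS1 -0.01, 0.11 and -0.03.

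Of 18 epithelial genes that EMT factors are known to repress, 11 had enough counts to test, and none was called against control. Their median log2 difference was -0.50 for p38i, -0.67 for EZH2i and -0.26 for the combination, with 2, 2 and 3 of 11 positive. CDH1, which encodes E-cadherin, ranged from 4.03 to 55.4 CPM in control, 0.55 to 33.4 with p38i, 0.25 to 4.47 with EZH2i and 0.94 to 42.2 with the combination, so that every group overlapped control. EPCAM, an epithelial adhesion molecule, measured 66.4 ± 32.6 CPM in control, 41.7 ± 11.8 with p38i, 28.1 ± 6.04 with EZH2i and 50.0 ± 19.8 with the combination (SD, n = 3). Over the 61 genes of all 6 lists, edgeR had 11 for p38i, 7 for EZH2i and 7 for the combination at an unadjusted p under 0.05, which is 18.0%, 11.5% and 11.5% of them, against 18.4%, 14.7% and 16.3% of all genes. DESeq2 called 3 (HMGA2, TCF3 and LAMB1), 1 (CD44) and 1 (CD44), and limma-voom called 1, 0 and 0.

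**Figure D5:**
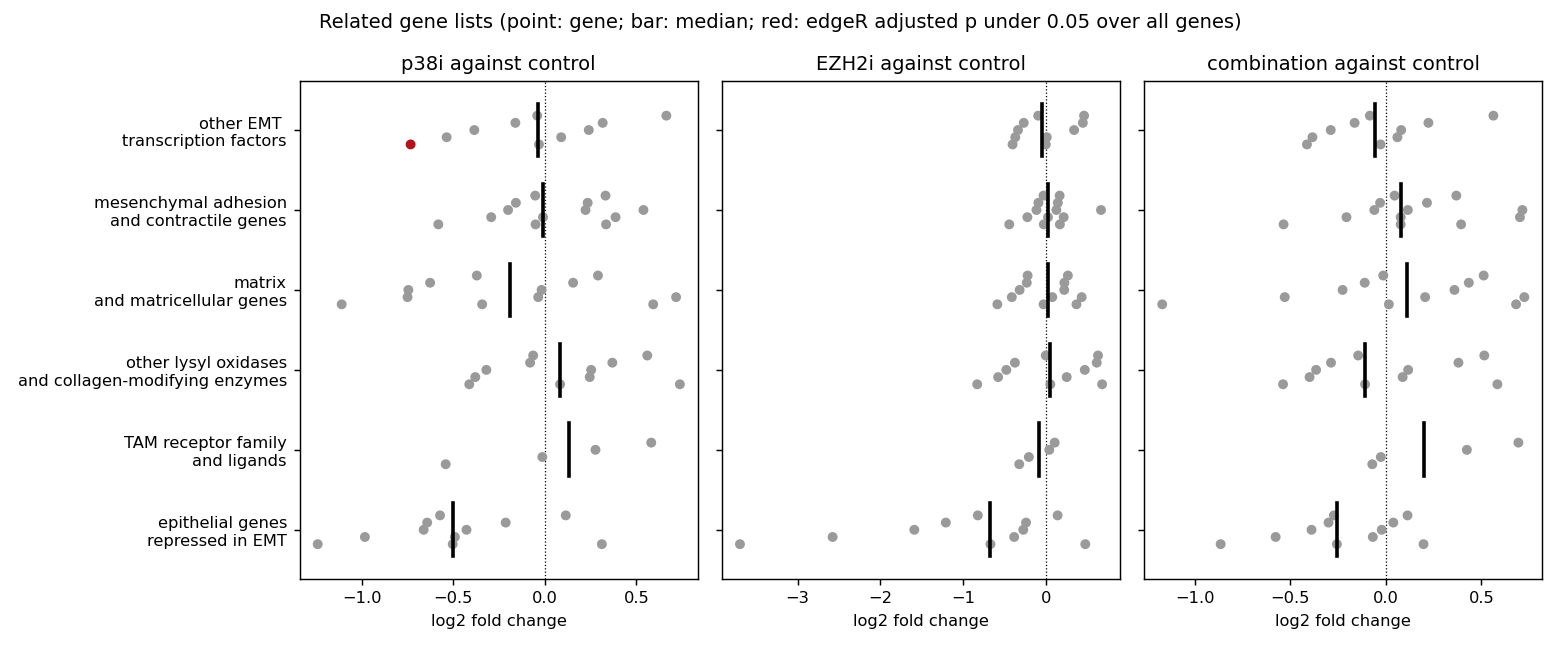
Log2 difference from control for p38i, EZH2i and the combination (horizontal axes, whose ranges differ) of the tested genes of 6 related lists (vertical axis). Points are genes, bars are medians, and the red point is HMGA2, the gene called by edgeR. The epithelial list has its median at -0.50, -0.67 and -0.26.

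Markers of other cell types and of the tumour label were read in all libraries. Summed levels of 7 pericyte markers ran from 53.1 to 66.6 CPM in control, 44.3 to 58.3 with p38i, 34.8 to 44.5 with EZH2i and 41.4 to 48.0 with the combination. The sum was thus below all controls in EZH2i and combination tumours, but the single markers differed. ABCC9 and MCAM were below all controls in both groups, while RGS5 and NOTCH3 overlapped control in both. NOTCH3 measured 11.2, 6.30 and 1.42 CPM in control 1-1, 1-3 and 2-1, and at most 2.20 CPM in those groups. KCNJ8 had at most 5 counts and was at 0 in 4 libraries, and DES had at most 12 and was at 0 in 9. CSPG4 measured 7.91, 6.30 and 4.27 CPM in control 1-1, 1-3 and 2-1, and 9.38, 8.15 and 6.28 CPM in combination 8-1, 9-1 and 9-2. Those of 8 endothelial markers ran from 13.4 to 31.4 CPM and those of 8 macrophage markers from 26.2 to 59.3 CPM over all groups. The 5 adipocyte markers summed to at most 7.72 CPM in any library. The receptor genes ESR1, PGR and ERBB2 together measured 25.7 to 38.7 CPM, in tumours of a line labelled triple-negative. The part of these markers in the values of the 10 genes was not tested.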

How the data were processed

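RNA from 12 tumours was sequenced, 3 in each of 4 groups. Per the submitters' processing notes, Trim Galore 0.5.0, STAR 2.6.0 and hg19 were used. The labels name QuantSeq, which reads transcript 3′ ends, beside a SMARTer mRNA kit, so coverage along transcripts is unknown. The counting program and its use of strand are not given in the sources used here. The authors deposited raw counts per gene symbol. Dropped were 3 lines without a gene name, which held 0 counts.

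Columns were joined to tumours by the column names in the labels. Column 5 is named by 2 p38i samples and column 6 by none, so column 6 was taken as p38i by elimination.

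Genes were filtered with filterByExpr and scaled by TMM in edgeR 4.0.16 (R 4.3.3). The robust quasi-likelihood fit had 1 term for each group over all libraries, which share 1 estimate of the spread (biological coefficient of variation 0.219), and two-sided tests were adjusted by Benjamini-Hochberg over 12514 genes. The SE is the size of the log2 difference divided by the root of F. DESeq2 1.42.0 and limma-voom 3.58.1 were alternatives, with other scalings, filters and fits and each library left out. Correlations used log2 CPM with a prior count of 2 and 100000 permutations, two-sided. The code was tested on simulated counts.

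No 2 libraries of a group agreed within sampling noise (chi-square per degree of freedom at least 5.71). The genes and lists were chosen with earlier results of these data known. All 10 genes are described. Genes of the related lists are named where called, or as 2 to 4 examples in list order where none was.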

Additional observations from a re-analysis of the deposited data

How the results depend on the processing

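The 70 log2 differences of the 10 genes were recomputed under other settings, giving 1373 values. Of these, 1361 kept their side of the threshold, 5 lost a call, 7 gained one and no called value changed sign, while 67 values of 25 uncalled differences did. In the p38i comparison DESeq2 called 2 of the 10 genes (LOXL2 and FN1), and leaving out 1 library at a time gave 0 to 2. For EZH2i DESeq2 called 1 (LOXL2). For the combination DESeq2 called 2 (LOXL2 and SNAI2), and leaving out 1 library gave 0 to 1 (LOXL2, without control 2-1, adjusted p = 0.0417). For the interaction DESeq2 called 1 (LOXL2). For any difference among the 4 groups, having no filter on low counts gave 1 gene, DESeq2 gave 3, and leaving out 1 library gave 0 to 1. The cause of these changes was not tested. Over all genes, DESeq2 called 632 against 221 for p38i, 232 against 27 for EZH2i, 167 against 1 for the combination, 226 against 3 for the interaction and 418 against 25 for any difference. With no filter on low counts these were 114 for EZH2i, 42 for the combination, 70 for the interaction and 155 for any difference, and with limma-voom 16 for EZH2i and 4 for any difference. With only the 2 groups compared they were 4 for EZH2i and 4 for the combination, with library totals 3 for the combination and 11 for any difference, and without the robust option 15 for any difference. Leaving out 1 library gave 2 to 568 calls over all genes for p38i, 2 to 125 for EZH2i, 0 to 229 for the combination and 1 to 76 for any difference, each highest without control 2-1, and 2 to 42 for the interaction, highest without EZH2i 5-3. The 45 correlations gave 90 values under other settings, all on the same side of the threshold. SNAI1 and TWIST1 had 1 to 18 and 3 to 49 counts per library, and their intervals are the widest of the 10. The part of depth in these intervals was not tested. With a minimum mean of 5 CPM SNAI1 was not tested, and DESeq2 gave it no adjusted p against control. No paired analysis was possible because the tumour codes are not shared between groups.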
